A study of Mus musculus with 14 samples.

Results

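The stomach of the C57BL6 mouse was profiled here by 2 libraries of short sequence tags, 1 from a male and 1 from a female, and set against 12 libraries of 6 other tissues. The 2 stomach libraries were taken by their titles out of 14 in all. The reference tissues were bone marrow, hippocampus, liver, pancreas, parotid gland and spinal cord, each with 1 male and 1 female library. The male liver library came from the left lobe and the female one from the right lobe. All 14 libraries were made from total RNA of mice of the same strain. The labels mention no treatment and do not state age, the number of animals per library or the region of the stomach. With 1 library per sex, the p-values below rest only on the spread between male and female libraries, pooled over tissues, which may be partly technical. That spread was wider in stomach: the SD of the male over female log2 ratio across genes was 1.42, against 0.329 to 0.618 in the other 6 tissues. The p-values and standard errors (SE) of stomach against other tissues may therefore be too small.

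The mouse stomach has 2 kinds of lining. A forestomach lined by keratinised squamous epithelium leads into a glandular stomach, whose pits and glands hold surface mucous cells, mucous neck cells, acid-secreting parietal cells, pepsinogen-secreting chief cells and hormone-producing endocrine cells. Smooth muscle with its own nerve plexus surrounds both. Chief cells release the inactive precursors of the protease pepsin, parietal cells pump protons out in exchange for potassium, and mucous cells cover the surface with mucins and trefoil peptides.

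The assay cut complementary DNA with DpnII at GATC and read 20 bases from the site nearest the 3′ end. Each RNA molecule therefore gives 1 tag whatever its length, and a gene's level is its tag count scaled to the library's counts assigned to genes (CPM). The tags below carried the leading stomach signals and are shown so that each level can be traced to the molecule counted, with GATC in capitals and the gene's chromosome from RefSeq's GRCm38.p6 table. Genes were named from the UniGene clusters in the files, and no transcript sequences were used to check the matches.
Pgc, chromosome 17: GATCctcggggatgtcttcc
Gkn2, chromosome 6: GATCctgggagtctccatct
Muc5ac, chromosome 7: GATCacccaagggtcccatg
Atp4a, chromosome 7: GATCcggaaacttggagttc
Atp4b, chromosome 8: GATCatttgcccgtcctgca
Cblif, chromosome 19: GATCtgtgctacttgctgtc
Ghrl, chromosome 6: GATCaggttcaatgctccct
Clps, chromosome 17: GATCacgcagttagctgggt
Pla2g1b, chromosome 5: GATCacctgcagcgccaaaa
Chia1, chromosome 3: GATCagggaaaatttcctct
Tff2, chromosome 17: GATCtttgaagtgccctggt
Sprr2a1, chromosome 3: GATCagggcaatggtcactg
Actg2, chromosome 6: GATCattaaaaccttcaagc
Casp6 cluster, chromosome 3: GATCtggctggtgacacagt
The Pgc tag was counted 432245 times in the male and 186301 times in the female stomach library and in none of the other 12. The Muc5ac tag was counted 6706 times in male and 6948 times in female stomach, against 2 counts elsewhere. The Atp4b tag was counted 4589 and 5110 times in male and female stomach and not at all elsewhere. The printed tag made up 95.9% of the stomach counts of Pgc, 99.9% of those of Muc5ac and 96.1% of those of Atp4b.

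The 2 stomach libraries differed from each other in ways the labels do not describe. The male library held 2194028 tag counts, of which 1922511 (87.6%) were assigned to genes, and the female library 3140095, of which 2307384 (73.5%) were. The other 12 libraries held 2466184 to 3834568. Tags without any assignment made up 4.18% of the male and 18.6% of the female stomach library, against 3.69 to 13.01% in the other 12. Mitochondrial tags took 4.44% of the gene counts in male and 11.9% in female stomach. Tags that differ from the leading Pgc tag by a single base amounted to 2.41% of its count in male and 15.3% in female stomach. The Y-linked Eif2s3y, Kdm5d and Ddx3y stood at 11.4, 9.88 and 7.80 CPM in male stomach and at 0 in female stomach. A count of 0 allows up to 3 counts, 1.56 CPM in male and 1.30 CPM in female stomach, and covers counting error only.

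The 3 marker genes of the stomach were present at high level in both stomach libraries and all but missing elsewhere. Pgc, pepsinogen C, stood at 234060 CPM in male and 84495 CPM in female stomach, against 1 count in the 12 others together. Gkn2, a secreted protein of surface mucous cells, stood at 25326 and 14897 CPM, against 1 count elsewhere. Muc5ac, the gel-forming mucin of the gastric surface, stood at 3493 and 3012 CPM, against 2 counts elsewhere. The groups were far apart for all 3, and the libraries carry the label's tissue.

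**Figure D1:**
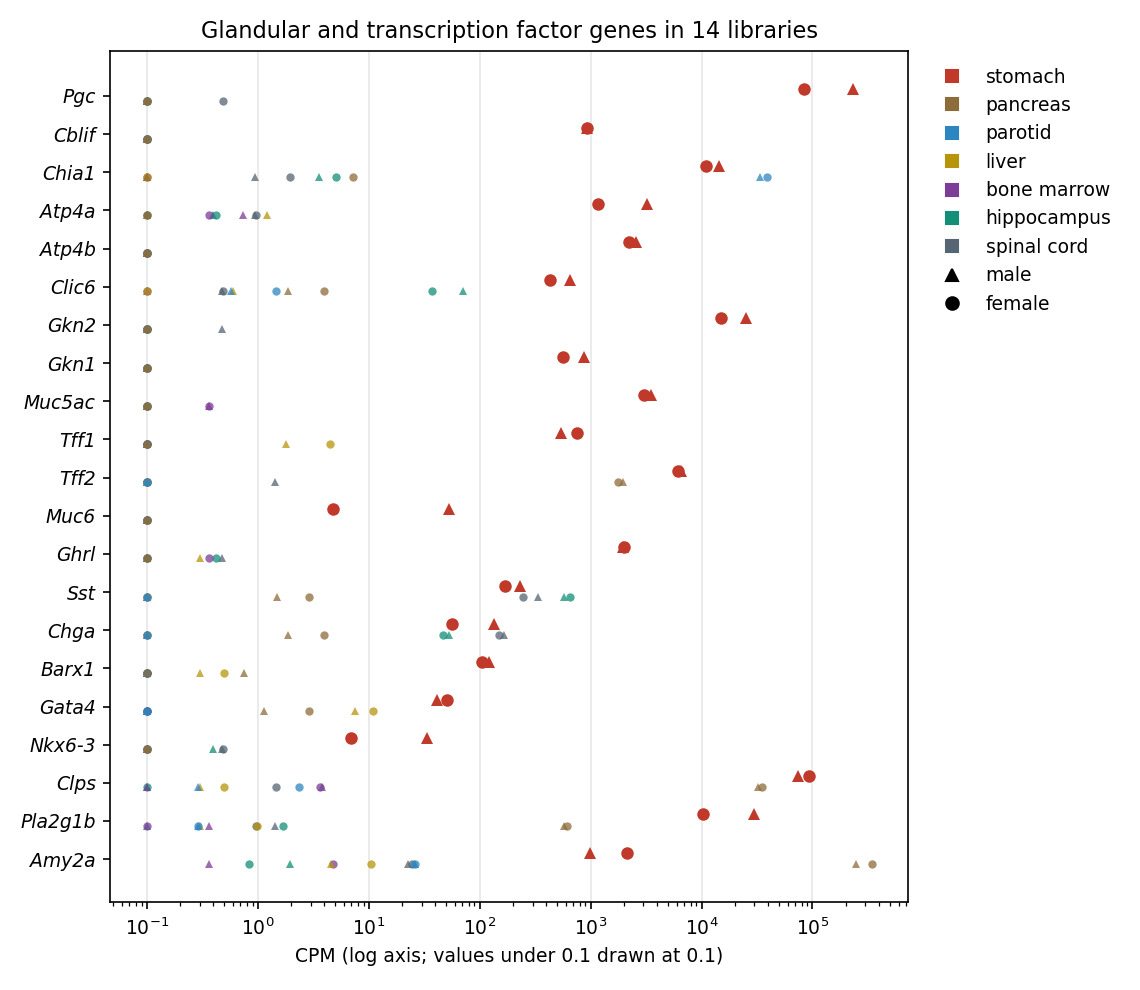
Level of 21 glandular and transcription factor genes in each of the 14 libraries, in CPM on a log axis, with triangles for male and circles for female libraries and values under 0.1 drawn at 0.1. Stomach lies above all others for Pgc, Gkn2, Muc5ac, Atp4b and Clps, while parotid lies above it for Chia1 and pancreas for Amy2a.

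Of 22221 genes with a count, 14682 passed the filter on low counts and were tested with edgeR's quasi-likelihood test. That filter works by tissue, so a gene can pass on the 2 stomach libraries alone, and 65 genes tested had no count elsewhere. A list member seen only in stomach was thus tested because it is high there. Genes were called where the fold reached 2 and the p-value, adjusted by the method of Benjamini and Hochberg, lay below 0.05. Against the mean of the 6 other tissues, 2631 genes (17.9% of those tested) were called higher in stomach and 577 (3.93%) lower. The mean is over log levels, so a gene that is high in 1 other tissue and absent from the rest can still be called higher. Both stomach libraries lay above all 12 others in CPM for 832 genes (5.67%), 817 of which were also called higher (5.56%), and 378 (2.57%) were called higher against each of the 6 tissues in turn. Here and below, lying above all others is judged in CPM, without the TMM scaling factors that the calls use. Those factors were 0.147 and 0.184 in male and female pancreas, so a gene can lie above pancreas in CPM only, as Clps and Tff2 did. The count of 577 was 1739 without the female stomach library, 2156 with limma voom and 204 with library totals, under which that of 2631 was 3976. The count of 378 was 195 and 189 without the female and the male pancreas library and 611 without the female stomach library. The count of 817 was 1746 without the female stomach library. The median log2 difference over all tested genes was 0.17.

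The 12 genes with the highest stomach level among the 817 were the 3 markers, Clps, Pla2g1b, Tff2, Sprr2a1, Fabp5, Krt19, Actg2, Acta2 and a cluster titled caspase 6. That cluster stood at 68801 CPM in male and 49302 CPM in female stomach, and the others at a lowest of 0, a median of 6.05 and a highest of 20.3 CPM. Its leading tag, printed above, was counted 132105 and 113706 times in male and female stomach and 1 time in the 12 others, where the cluster as a whole had 291 counts. Whether that tag belongs to the caspase transcript was not tested, so the level is the tag's and not necessarily the gene's.

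Chief cell products were high in stomach: 8 of the 9 genes tested from that list were called higher, 4 of them above all 12 other libraries and 3 higher than each of the 6 tissues, with a median log2 difference of 4.78. Of all genes tested 17.9% were called higher, 5.56% with both libraries above all others, and 3.93% lower. The median log2 difference was 0.17, and the counts of the lists that follow are to be read against these. List members that did not pass the filter on low counts are outside those counts. The summed level of the chief cell list was 249951 CPM in male and 96671 CPM in female stomach, or 25.0% and 9.67% of all gene counts, against 5.44 to 38892 CPM in the other libraries. In bulk tissue, more cells of a type and more RNA per cell cannot be told apart. Pga5, the other pepsinogen measured, stood at 83.7 CPM in male and 34.2 CPM in female stomach, against a highest of 0.377 CPM elsewhere. Pgc thus carried nearly all the pepsinogen tags. Cblif, the intrinsic factor that carries vitamin B12 and in rodents comes from chief cells, stood at 937 and 931 CPM in male and female stomach. It had no count in the 12 others, which makes it at least 9998-fold higher against a floor of 3 counts over those libraries.

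Some members of the chief cell list were higher in another gland. Chia1, acidic chitinase, stood at 14469 CPM in male and 11050 CPM in female stomach, against a lowest of 0, a median of 1.46 and a highest of 38658 CPM in the others. Both parotid libraries exceeded stomach (mean 36122 ± 3587 CPM, SD, n = 2), and the log2 difference against parotid was -2.69 (adjusted p = 0.0124). Dmbt1, a mucin-like scavenger protein, had 61.9 and 41.6 CPM in male and female stomach and up to 1596 CPM in pancreas. Bhlha15, a transcription factor of secretory cells, had 12.5 and 4.77 CPM, against up to 116 CPM in parotid. Rab26, a secretory granule GTPase, had 1.56 and 0.433 CPM and was the member not called.

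Genes of acid secretion by parietal cells were called higher in 23 of 27 cases, 14 of them above all 12 others and 13 higher than each tissue, with a median log2 difference of 4.76. The catalytic subunit of the gastric proton pump, Atp4a, stood at 3238 CPM in male and 1168 CPM in female stomach, against a lowest of 0, a median of 0.381 and a highest of 1.21 CPM elsewhere (log2 difference 13.06 ± 0.35, SE, adjusted p = 1.22e-13). Its beta subunit Atp4b stood at 2564 and 2236 CPM, without a count in the other 12, which is at least 25694-fold higher. Atp4a thus lay above Atp4b in the male stomach library and below it in the female one. Among the ion channels that return potassium to the pump, Kcnq1 stood at 37.5 CPM in male and 108 CPM in female stomach and its partner Kcne2 at 60.3 and 29.9 CPM, against highest levels elsewhere of 11.2 and 5.14 CPM. Kcnj15 had 61.9 and 246 CPM and Kcnj16 99.4 and 224 CPM.

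Transporters for chloride, bicarbonate and protons had the same direction. The chloride intracellular channel gene Clic6 stood at 657 CPM in male and 434 CPM in female stomach, against up to 70.4 CPM in hippocampus. Slc26a9, an apical chloride transporter, had 26.0 and 21.2 CPM and no count elsewhere, at least 253-fold higher. The sodium-proton exchanger Slc9a4 had 41.1 CPM in male and 578 CPM in female stomach, against a highest of 60.1 CPM in the others. That male value lay below the highest hippocampal one. The anion exchanger Slc4a2, which removes bicarbonate, had 217 and 44.6 CPM, against up to 38.7 CPM. Carbonic anhydrase 2, Car2, had 276 and 1078 CPM but was higher in bone marrow (mean 2373 CPM), where it serves red cells. Ezr, the membrane linker of parietal canaliculi, had 591 and 482 CPM and was higher than in each of the 6 tissues.

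The receptors that regulate acid had low levels, and Cckbr and Chrm3 lay near the floor. Cckbr, the gastrin receptor, had 0.520 and 0.433 CPM in male and female stomach, which is 1 count in each, and Chrm3, the muscarinic receptor, 0.520 and 2.17 CPM. Neither was called (adjusted p = 0.626 and 0.536), and a difference was not detectable at this depth. Sstr2, the somatostatin receptor, had 1.56 and 14.3 CPM and was called higher against the mean (log2 2.09, adjusted p = 0.0399), but its log2 difference was -0.17 without the female library. Ptger3, a prostaglandin E receptor, had 8.32 and 6.07 CPM and was called higher (log2 1.58, adjusted p = 0.0228). Kcnj10 and Prkacb were not called.

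Surface mucous cell genes showed the highest median of the glandular lists, a log2 difference of 8.53. Of 24 tested, 22 were called higher, 21 of these above all 12 other libraries and 18 higher than each tissue. Gkn1, the other gastrokine, stood at 880 CPM in male and 566 CPM in female stomach and had no count elsewhere, at least 7741-fold higher. Tff1, the trefoil peptide of surface cells, had 542 and 752 CPM, against up to 4.47 CPM. Mucl3 had 2982 and 621 CPM, the lipid-binding Anxa10 475 and 1187 CPM, and the sulfotransferase Sult1c2 183 and 1066 CPM. Mucl3 was therefore higher in the male library and the other 2 in the female one. Cldn18, the tight junction protein of stomach, had 142 and 326 CPM without a count elsewhere, at least 2508-fold higher. The aspartic protease Ctse had 865 and 1614 CPM, against up to 1014 CPM in bone marrow, so its groups overlapped. Ptprz1 and Gcnt1 were not called.

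Mucous neck and deep gland genes were called higher in all 8 cases tested, with a median log2 difference of 8.27, or 8.06 with the gene that had no count elsewhere set at its bound. Of 9 members found, 8 passed the filter on low counts, and DESeq2 called 4 of the 8 higher. Both libraries lay above all 12 others for 6 of the 8, and 2 were higher than each tissue. Tff2, spasmolytic peptide, stood at 6565 CPM in male and 6149 CPM in female stomach, against a median of 0 and a highest of 1963 CPM, reached in pancreas. Muc6, the mucin of neck cells, had 52.5 and 4.77 CPM and no count elsewhere, at least 307-fold higher. A4gnt, which adds the terminal N-acetylglucosamine of gland mucin, had 26.5 and 15.6 CPM, against up to 0.361 CPM. Gkn3 had 578 and 522 CPM, against up to 2.89 CPM. Among 25 genes of mucin glycosylation, 16 were called higher and 1 lower, 9 of them above all others, such as Gcnt3 with 214 and 66.7 CPM and the fucosyltransferase Fut2 with 45.8 and 80.2 CPM.

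Endocrine cell genes were led by ghrelin. Ghrl, the appetite hormone of gastric X/A-like cells, stood at 1969 CPM in male and 2015 CPM in female stomach and had 4 counts in the other 12 libraries together (log2 difference 13.90 ± 0.39, SE, adjusted p = 1.98e-13). Of 24 members found, 18 passed the filter on low counts, and 6 had no count in male and 6 none in female stomach. Of the 18 tested, 11 were called higher, but 3 above all others and 2 higher than each tissue, Ghrl and the pyloric factor Nkx6-3 (33.8 and 6.93 CPM). Sst, somatostatin of D cells, had 230 CPM in male and 170 CPM in female stomach, against up to 658 CPM in hippocampus. The granule proteins Chga (134 and 56.8 CPM) and Chgb (32.8 and 19.5 CPM) were likewise called higher against the mean and exceeded in nervous tissue. Hdc, the histamine-forming enzyme of enterochromaffin-like cells, had 7.80 and 6.07 CPM, against up to 78.5 CPM in bone marrow. Cck and Nkx2-2 had no count in stomach.

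Transcription factors known from stomach were called higher in 26 of 29 cases, 13 above all others. Barx1, a homeobox gene of the stomach mesenchyme, stood at 121 CPM in male and 104 CPM in female stomach, against up to 0.754 CPM. The endoderm factors Gata4 (41.1 and 51.1 CPM), Gata5 (19.2 and 14.3 CPM) and Gata6 (41.6 and 10.8 CPM) had highest levels elsewhere of 10.9, 0 and 3.93 CPM. Gata5 was at least 180-fold higher. Foxa1 had 39.5 and 147 CPM, whereas Foxa2 (8.84 and 52.9 CPM) and Foxa3 (27.6 and 71.5 CPM) overlapped with liver. Pitx1 had 119 and 26.9 CPM and Sox21 26.5 and 65.01 CPM. Sox2, a factor of the anterior gut and of neural tissue, had 1.04 and 0.433 CPM, against up to 45.9 CPM in spinal cord, and with Xbp1 and Hoxb4 was not called.

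Squamous epithelium genes were all called higher: 47 of 47 tested, 41 above all 12 others and 34 higher than each tissue, with a median log2 difference of 8.05 (7.76 with 11 genes absent elsewhere at their bounds). Of 57 members found, 47 passed the filter on low counts. The genes absent elsewhere passed it through stomach alone, so the count of 47 was partly fixed in advance. Their summed level was 27740 CPM in male and 53474 CPM in female stomach, against 14.3 to 745 CPM in the other libraries. Sprr2a1, a small proline-rich precursor of the cornified envelope, made up most of it, with 17457 CPM in male and 44262 CPM in female stomach, against a lowest of 0, a median of 0.565 and a highest of 18.6 CPM. Its genomic relatives are near-identical and tags may be shared between them, so the member within the family is uncertain. Krt4, a keratin of inner squamous linings, had 648 and 1597 CPM, against up to 0.488 CPM. Lor, loricrin of the cornified layer, had 1888 and 808 CPM, and Krt10 1268 and 2201 CPM. The protease inhibitor Spink5 had 104 and 315 CPM and Dmkn 382 and 381 CPM. Trp63, the factor of basal squamous cells, was low, with 11.4 and 5.63 CPM, and higher than 4 of the 6 tissues. The count of 47 was the same without the female and without the male stomach library, and DESeq2 called 34.

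Simple epithelial genes were called higher in 18 of 21 cases, 14 above all others. Krt19 stood at 3134 CPM in male and 2414 CPM in female stomach, against a lowest of 0.992, a median of 11.7 and a highest of 29.6 CPM (log2 difference 7.88 ± 0.28, SE, adjusted p = 2.92e-13). Krt8 had 1816 and 2670 CPM, against up to 237 CPM in liver. Krt18, its partner, had 605 and 407 CPM, against up to 186 CPM, and Cdh1, E-cadherin, 375 and 166 CPM, against up to 19.1 CPM.

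Smooth muscle genes were called higher in 38 of 42 cases, 21 above all others and 19 higher than each tissue, with a median log2 difference of 3.34. Acta2 stood at 3491 CPM in male and 2055 CPM in female stomach, against a lowest of 3.25, a median of 18.7 and a highest of 66.1 CPM (log2 difference 6.98 ± 0.23, SE, adjusted p = 1.22e-13). Actg2, the enteric actin, had 764 CPM in male and 6460 CPM in female stomach, against up to 4.30 CPM. Desmin, Des, had 882 and 189 CPM, the smooth muscle myosin Myh11 699 and 463 CPM, and Tpm2 913 and 830 CPM, each above all other libraries. Stromal genes were called higher in 28 of 32 cases, 14 above all others, such as Col3a1 (417 and 713 CPM, against up to 216 CPM) and Postn (64.5 and 70.6 CPM, against up to 11.7 CPM).

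Nerve plexus and pacemaker cell genes were a minor part of the stomach libraries. Of 24 enteric neuron and glia genes 9 were called higher and 1 lower, none above all others. Vip, a relaxing neuropeptide, had 10.4 CPM in male and 55.9 CPM in female stomach, against up to 83.8 CPM in hippocampus. Of 8 pacemaker cell genes 2 were called higher, the chloride channel Ano1 (18.7 and 13.9 CPM) and the gap junction gene Gja1 (121 and 22.1 CPM). Kit, the receptor that defines those cells, had 15.6 and 23.8 CPM, against a median of 16.6 and a highest of 61.3 CPM, and was not called (adjusted p = 0.532). Of 14 endothelial genes 1 was called higher, Plvap, with 55.7 and 80.2 CPM, against up to 47.6 CPM.

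Pancreatic enzyme genes were present in stomach, with 2 of them at levels unlike the rest. Clps, colipase, stood at 74396 CPM in male and 93379 CPM in female stomach, against a lowest of 0, a median of 0.981 and a highest of 35112 CPM in pancreas. In CPM its stomach mean was 2.496 times the pancreas mean of 33606 ± 2130 CPM (SD, n = 2). With TMM scaling, which sets the pancreas factors at 0.147 in male and 0.184 in female pancreas because a few enzymes fill those libraries, the log2 difference against pancreas was -1.72 and was not called (adjusted p = 0.16), so the order of stomach and pancreas depends on the scaling. Pla2g1b, a secreted phospholipase A2, stood at 29438 CPM in male and 10214 CPM in female stomach, against a median of 0.672 and a highest of 613 CPM. Its stomach mean was 33.4 times that of pancreas, and it was called higher against pancreas also with TMM scaling (log2 1.95, adjusted p = 0.0257). Tff2 had the same reversal as Clps, at 3.40 times pancreas in CPM and a log2 difference of -1.20 with TMM scaling (adjusted p = 0.148).

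The remaining acinar genes had far higher levels in pancreas. Of 21 tested, 18 were called higher against the mean of 6, but 1, Pla2g1b, was higher than each tissue. Cela2a, an elastase, had 748 CPM in male and 416 CPM in female stomach, against up to 48296 CPM in pancreas. Cpa1, carboxypeptidase A1, had 279 and 176 CPM, against up to 20471 CPM, and Amy2a, pancreatic amylase, 998 and 2136 CPM, against up to 343489 CPM. Cela2a, Cpa1 and Amy2a were thus far below their pancreas level, while Clps and Pla2g1b were above theirs in CPM. Whether pancreatic RNA contributed to the stomach libraries was not tested.

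Intestinal and liver secretory genes gave mixed counts. Of 27 intestinal members found, 14 passed the filter on low counts, and 8 had no count in male and 10 none in female stomach. Of the 14 tested, 9 were called higher, 4 of them above all others, and 1 lower, and DESeq2 called 4 higher. Clca1, of mucus-releasing cells, had 142 and 26.0 CPM in male and female stomach, against up to 0.723 CPM, and the retinol-binding Rbp2 57.7 and 41.2 CPM, against up to 3.98 CPM. Apoa1, an apolipoprotein, stood at 1644 and 1825 CPM in male and female stomach, against a median of 3.85 and a highest of 19248 CPM in liver, and was higher than 5 of the 6 tissues. Of 14 hepatocyte genes 5 were called higher and 1, Trf, lower. Mup3 had 20.8 and 5.20 CPM, against up to 12323 CPM in liver, and Serpina1a 34.3 and 15.2 CPM, against up to 40435 CPM.

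Retinol and alcohol metabolism genes were called higher in 13 of 23 cases, 7 above all others. Adh7, the alcohol dehydrogenase of the upper digestive tract, stood at 131 CPM in male and 136 CPM in female stomach, against up to 16.9 CPM in liver, and Aldh3a1 at 186 and 107 CPM, against up to 1.58 CPM. Genes of mucosal defence and detoxification were called higher in 14 of 24 cases and lower in 1, with 7 above all others. Gsta4, a glutathione transferase, had 2544 and 1047 CPM, against up to 124 CPM, Nqo1 250 and 352 CPM, against up to 22.7 CPM, and Gpx2 54.1 and 32.5 CPM, against up to 0.578 CPM. Lcn2, the member called lower, had 1.04 and 1.30 CPM, against up to 2114 CPM in bone marrow. Of 41 genes in the list of nuclear genes of oxidative phosphorylation 13 were called higher. They were led by the mitochondrial creatine kinase Ckmt1 (570 and 410 CPM, against up to 401 CPM), which is not itself a subunit of the respiratory chain. Of the 10 mitochondrial genes edgeR called 0, with 1 at an unadjusted p under 0.05, and DESeq2 and limma voom called 0 as well.

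Lists of blood, lymphoid and neural genes were counted in the same way, and 3.93% of all genes tested were called lower by edgeR. Of 9 T and natural killer cell genes edgeR called 0, with 3 at an unadjusted p under 0.05, DESeq2 called 0 and limma voom called 3 lower. Of 9 plasma and B cell genes 0 were called higher and 3 lower, in edgeR and in DESeq2, and 0 had a positive difference at an unadjusted p under 0.05. Cd79b had 0 and 0.433 CPM in male and female stomach, against up to 468 CPM in bone marrow, and Jchain 2.08 and 0.433 CPM. Of 17 macrophage and MHC class II genes 2 were higher and 2 lower, and Cd74 had 151 and 442 CPM, against up to 1585 CPM. Of 8 mast cell genes 3 were called higher by edgeR, 1 by DESeq2 and 2 by limma voom. They included Mcpt2, with 4.68 and 26.9 CPM, and Cma1, with 4.16 and 6.07 CPM, both above all others, while Fcer1a had 0 and 0.433 CPM. Haemoglobin Hbb-b2 had 233 and 183 CPM, against a median of 556 and a highest of 248463 CPM. Synaptic genes were called higher in 0 of 19 cases, also in DESeq2, in limma voom and at an unadjusted p under 0.05, and lower in 3, such as Syn1 with 0.520 and 1.73 CPM, against up to 548 CPM. Of 10 myelin genes 1 was called higher and 1 lower, with a median log2 difference of -2.54, while DESeq2 called 3 and limma voom 6 lower. The higher one was Mal, with 341 and 170 CPM, against up to 253 CPM in spinal cord.

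The tuft cell, stem cell and division lists showed few or moderate counts. Of 10 tuft cell genes 2 were called higher, and Avil, advillin, stood at 67.6 CPM in male and 55.0 CPM in female stomach, against up to 11.7 CPM. Dclk1, the usual marker of those cells, had 9.88 and 13.9 CPM and was not called (adjusted p = 0.0605). Of 12 stem and isthmus genes 6 were called higher, among them Prom1 (57.7 and 47.2 CPM, against up to 13.6 CPM) and the receptor Lgr5 (7.80 and 11.7 CPM, against up to 37.8 CPM in spinal cord). Of 23 division genes 9 were called higher against the mean and none above all others, with Mki67 at 18.7 and 13.9 CPM, against up to 461 CPM in bone marrow.

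**Figure D2:**
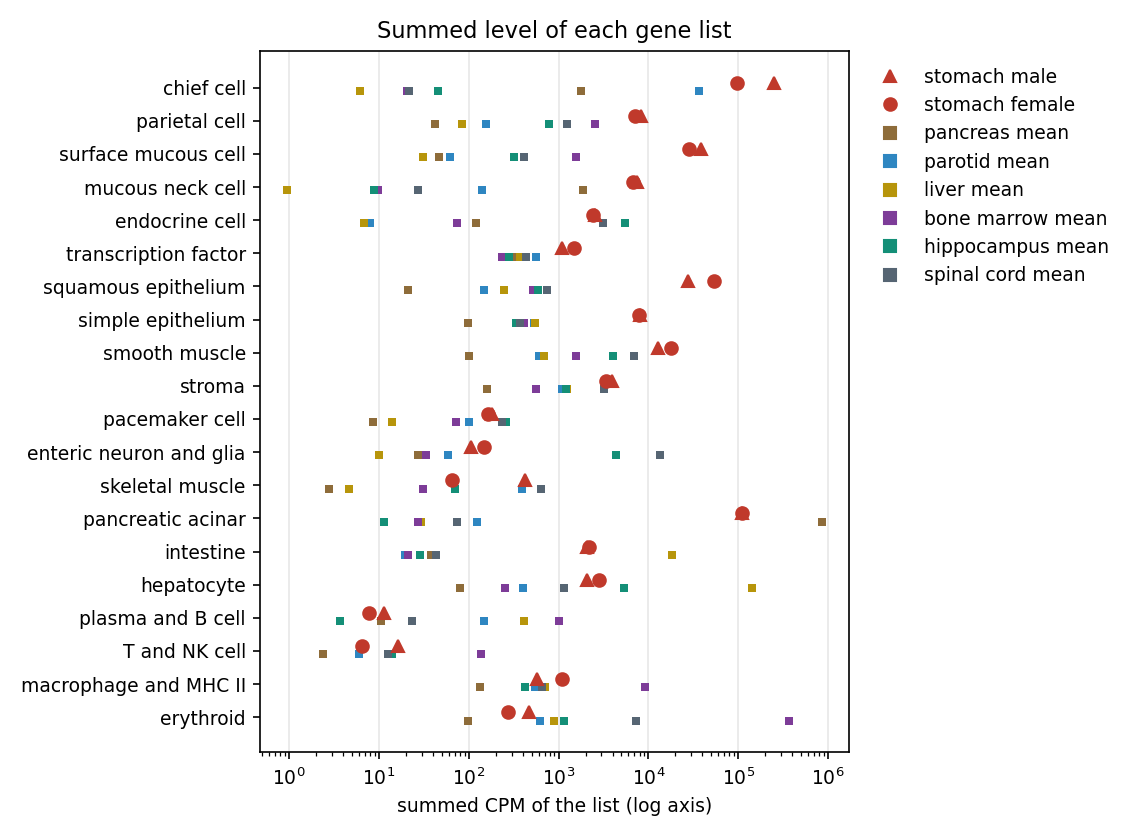
Summed level of 20 gene lists in CPM on a log axis, with a triangle for the male and a circle for the female stomach library and squares for the means of the other 6 tissues. The chief cell list stands at 249951 CPM in male and 96671 CPM in female stomach, above all other tissues, while the erythroid list reaches 370438 CPM in a bone marrow library.

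Against single tissues the number of differences followed no single order. Against pancreas 1135 genes (7.73%) were called higher and 574 (3.91%) lower in stomach, and against parotid gland 1526 (10.4%) and 921 (6.27%). Against liver the counts were 2689 (18.3%) and 2037 (13.9%), and against bone marrow 3467 (23.6%) and 2305 (15.7%). Against hippocampus they were 3296 (22.4%) and 3478 (23.7%), and against spinal cord 2820 (19.2%) and 3275 (22.3%). Stomach thus had fewer calls against both other exocrine glands than against the 4 other tissues. The 10 most abundant genes took 48.7% and 42.0% of the gene counts in male and female stomach and 18.7 to 80.4% in the other libraries, so the depth left for other genes differed, and the counts against tissues share the same 2 stomach libraries.

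**Figure D3:**
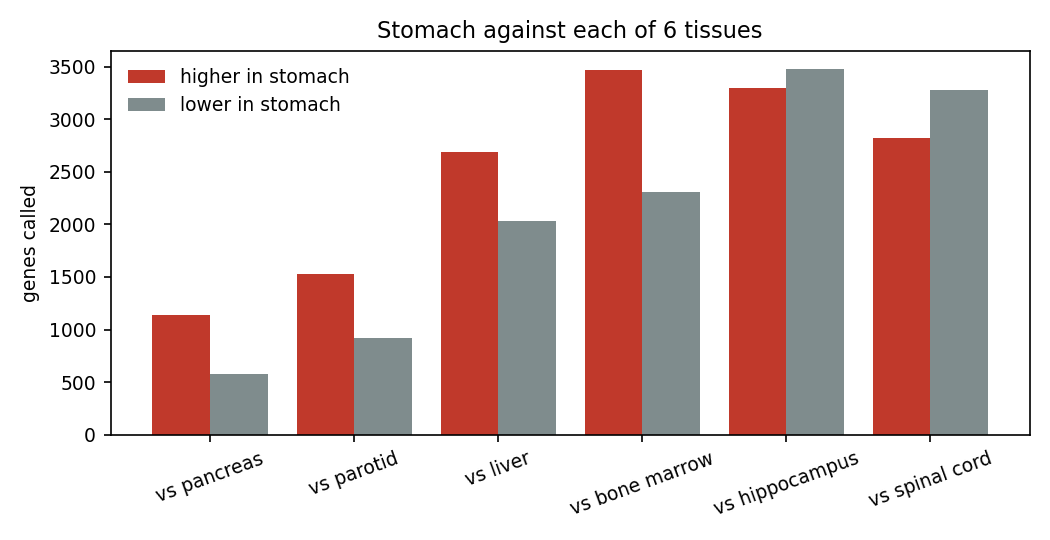
Number of genes called higher and lower in stomach against each of the 6 tissues, out of 14682 tested. The bars against pancreas stand at 1135 higher and 574 lower genes, and those against hippocampus at 3296 higher and 3478 lower.

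Few genes were counted as lowest in stomach, and the criterion itself limits that number. A gene without a count in any 1 of the 12 others could not qualify, and the male pancreas library had counts for 9519 genes of 22221. Only Hhex, a homeobox factor of the endoderm and of blood, was called lower with both stomach libraries below all 12 others (1 gene, 0.00681% of those tested). It had no count in either stomach library, against a lowest of 0.361, a median of 1.69 and a highest of 30.8 CPM elsewhere. That lowest value lies under the floor of 1.56 CPM in male and 1.30 CPM in female stomach, so the order against all 12 is not settled. Called lower than each of the 6 tissues were 7 genes (0.0477%), chosen for naming after their values were seen. Grina had 22.4 and 36.4 CPM in male and female stomach, Lpin1, a phosphatidate phosphatase, 3.12 and 15.6 CPM, and Nudt4 18.7 and 13.4 CPM. Apip, St3gal4, Fancm and the cluster titled opioid growth factor receptor-like 1, lay below 6 CPM. None of these 7 was called lower than each tissue with library totals in place of TMM factors, and 347 genes were called lower than each tissue without the female stomach library and 22 without the male one.

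The male and female stomach libraries were compared with a sex term of their own for stomach, in which the spread came from the other 6 tissues, so each stomach library is assumed to vary as those do. That assumption was not met. The SD of the male over female log2 ratio across genes was 1.42 in stomach, against 0.329 to 0.618 in the other 6 tissues. The p-values are therefore too small, and the calls describe these 2 libraries and not the sexes. In male against female stomach, 1719 genes (11.7%) were called higher and 2070 (14.1%) lower. Under the same assumption, the difference of that ratio from its mean in the other 6 tissues gave 1346 genes (9.17%) higher and 1872 (12.8%) lower. Among the abundant genes, the male over female log2 difference was 1.34 for Pgc and 1.39 for Pla2g1b, both no longer called after centring by tag composition, and -1.48 for Sprr2a1. Fabp5, a lipid carrier of squamous cells, had 1175 and 7335 CPM in male and female stomach (log2 -2.78). Actg2 had a log2 difference of -3.21. No test here has a second library of the same sex of stomach.

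The differences between the male and female stomach libraries followed the base composition of the tags. The tags below are those of genes with large differences, with G and C in capitals.
Azin1 cluster, chromosome 15: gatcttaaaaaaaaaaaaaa
Itgb5, chromosome 16: gatcGtttttttttCtatGa
Bud31, chromosome 5: gatctGtaaaaataaaaCCt
Serpina3n, chromosome 12: gatcaataaaCatataaCtG
Hint1, chromosome 11: gatcatttaaaattCtGtGC
Rpl28, chromosome 7: gatctGCGtatGGCGGCCat
Por, chromosome 5: gatcCaCGaaGGtGGtGCCC
Edf1, chromosome 2: gatcCaGCGGGGCCGGCaGa
The Azin1 tag, with 0 G or C in its 16 bases after the cut site, was counted 4976 times in male and 65764 times in female stomach. It is a run of A that many transcripts could give, so its gene is uncertain. The Itgb5 tag, with 3, was counted 41 and 1518 times, and the Hint1 tag, with 4, 296 and 6545 times. The Edf1 tag, with 13, was counted 290 times in male and 17 times in female stomach, and the Por tag, with 11, 240 and 24 times. Tags poor in G and C were thus scarce in the male library and those rich in G and C scarce in the female one.

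Across 6775 genes with a mean of at least 10 CPM in stomach, the male over female log2 ratio rose with the number of G and C bases of the leading tag, with a Spearman correlation of 0.719 across genes, which are not independent replicates. The median ratio was -2.37 for 301 genes with 2 or fewer such bases, 0.17 for 950 genes with 7, and 1.91 for 44 genes with 13 or more. In the other 6 tissues the same correlation lay between -0.235 in pancreas and 0.149 in liver. Of 1087 genes with 0 to 4 such bases, 3 were called higher and 846 lower in male stomach. Of 599 genes with 11 to 16, 348 were called higher and 8 lower. For a centring by composition, the median CPM ratio of each class within each tissue was subtracted from the fitted log2 ratio. This step was chosen after seeing the data. After it, 526 genes (3.58%) were called higher, 344 of them among the 1719, and 988 (6.73%) lower, 676 of them among the 2070. Those medians held no TMM scaling factors, while the fit kept them (1.3659 in male and 1.2452 in female stomach). Centred stomach ratios were thus shifted slightly down, toward calls lower in male stomach, so the 526 and 988 are not on equal terms. The cause of the dependence was not tested, and it cannot be told apart from sex, since each sex has 1 stomach library. The stomach difference from the other tissues depended less on composition, with median log2 differences of 0.21 in the class of 0 to 4 bases and 0.90 in that of 11 to 16.

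**Figure D4:**
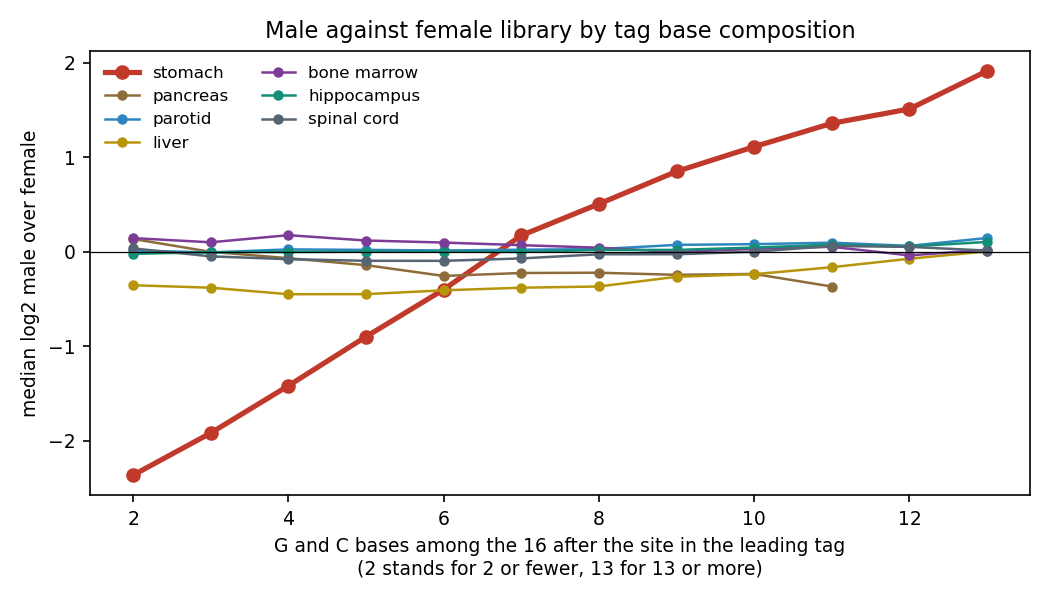
Median male over female log2 ratio of genes in classes of the number of G and C bases of their leading tag, for stomach and for each of the other 6 tissues. Stomach runs upward, with medians of -2.37 at 2 or fewer bases and 1.91 at 13 or more, while liver has -0.36 and 0.00 there. Classes of fewer than 20 genes are not drawn.

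After that centring, several male and female differences were lost and some were kept. The centred values carry the slight downward shift named above. Pgc had a log2 difference of 0.23 and Pla2g1b one of 0.54, and neither was called. The mitochondrial genes mt-Co1, mt-Co2 and mt-Nd1 lost their calls, and mt-Nd4 had a log2 difference of 0.63, against -1.29 before centring. Kept were Sprr2a1 (-2.33), Actg2 (-2.31), Fabp5 (-1.88), Hint1 (-2.88) and the mitochondrial mt-Nd6 (-2.56), lower in male stomach. Also kept were mt-Nd2 (1.45) and Mucl3 (1.02), higher in male stomach. Of all genes tested, 11.7% were called higher and 14.1% lower in male stomach before centring, and 3.58% and 6.73% after it. The list counts are to be read against these shares. Of the 47 squamous genes tested, 14 were called higher and 6 lower in male stomach before centring and 4 and 5 after it. Of the 42 smooth muscle genes the counts were 12 and 4 before and 3 and 3 after, and of the 27 parietal genes 4 and 8 before and 3 and 2 after.

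Skeletal muscle genes were called higher in male stomach in 11 of 13 cases, against 11.7% of all genes tested, with a median log2 ratio of 3.28, and in 8 of 13 after centring, with a median of 3.18. Their summed level was 421 CPM in male and 65.9 CPM in female stomach, and 1.89 to 797 CPM in the other libraries. The fast myosin Myh4 stood at 54.6 CPM in male stomach and had no count in female stomach. Fast troponin T, Tnnt3, had 53.1 and 0.433 CPM, myoglobin, Mb, 55.7 and 5.20 CPM, and muscle creatine kinase, Ckm, 32.8 and 3.03 CPM. Fast troponin I, Tnni2, had 79.6 and 31.6 CPM, and fast troponin C, Tnnc2, 34.3 and 8.67 CPM. Myh4 and Tnnt3 were thus under the floor in the female library, and Tnni2 and Tnnc2 were not. After centring, the log2 ratio was 0.09 for Tnni2 and 1.34 for Tnnc2, and neither was called. The leading tag by which Myh4 was centred held 12.4% of its stomach counts. Striated muscle belongs to the oesophagus of the mouse and not to the stomach wall, and the part of such tissue in the result was not tested. Against the mean of 6 tissues 8 of the 13 were called higher in stomach, 11 without the female library and 4 without the male one, with Myh4 at a log2 difference of -4.71 in the last.

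**Figure D5:**
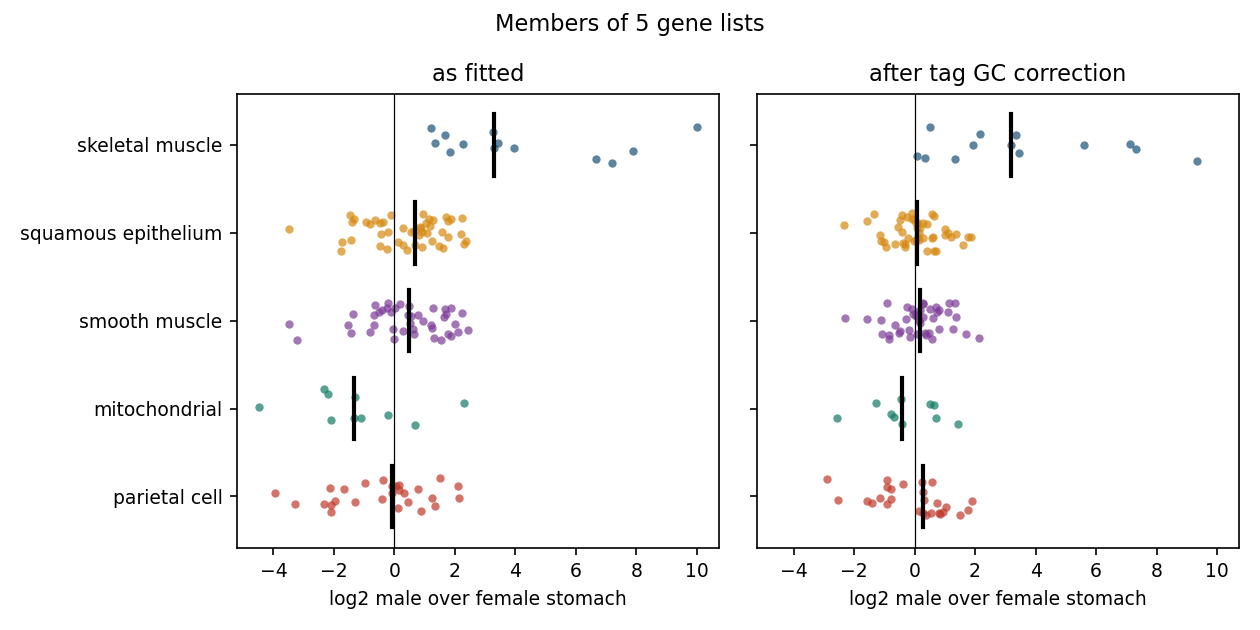
Male over female stomach log2 difference of each tested member of 5 gene lists (points) and the list's median (bars), as fitted on the left and after centring by tag composition on the right. The skeletal muscle median is 3.28 on the left and 3.18 on the right, and the squamous median 0.67 and 0.09.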

How the data were processed

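The authors deposited 1 table per library with a raw count for each 20-base tag, a UniGene cluster or mitochondrial gene, and a numeric assignment code, without a legend for the code. Per the labels, complementary DNA of total RNA was cut with DpnII and the tag at the site nearest the 3′ end was captured with MmeI. The sources used here name neither an aligner nor a genome build. Counts of tags with code 1 to 4 were summed per gene, and the row without a tag in each table was left out. Of 22221 genes, 12097 were named by accession and 1805 by cluster title. Fits used edgeR 4.0.16 in R 4.3.3 (TMM factors, filterByExpr by tissue, quasi-likelihood test with terms for tissue and sex, 6 residual degrees of freedom, or 5 with a sex term for stomach), with Benjamini-Hochberg adjustment over 14682 genes. Levels are CPM of gene counts, without TMM factors. Each SE was derived from the test, as the absolute log2 difference over the square root of F. It is approximate, above all for genes nearly absent from the other tissues. Alternatives used limma 3.58.1 (voom) and DESeq2 1.42.0, and the steps were tested on simulated data. Tables were handled with Python 3.11.15 and pandas 2.3.3. The members and the 37 gene lists, taken from general knowledge, were chosen with earlier results of these data known. Named genes were the 12 highest stomach genes above all others, genes below all others, the 3 markers, up to 6 per list by adjusted p (every member of the 6 glandular and factor lists), the highest members of lists of other tissues, and the leading sex differences. The tag composition centring was added after seeing the data, and its class medians came from CPM without TMM factors. The values of 1 gene called lower are left out of the text.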

Additional observations from a re-analysis of the deposited data

Results flagged for a closer look

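The male over female difference in stomach was set against that in the other 6 tissues, which gave 1346 genes called higher and 1872 called lower by the interaction test. That test takes its spread from the other tissues, where the male over female log2 ratio had an SD across genes of 0.329 to 0.618, against 1.42 in stomach, so its p-values are too small and the counts describe these 2 libraries. Among the genes with the smallest p, those lower in male stomach were Hint1 with a difference of log2 ratios of -4.34, the cluster titled ribosomal protein L29, with -4.56, Itgb5 with -5.08, Bud31 with -4.89, Pim3 with -4.62 and Serpina3n with -5.10. Higher in male stomach were the cluster titled ribosomal protein L13, with 3.73, Rpl28 with 3.20, the cluster titled ribosomal protein L4, with 4.05, Edf1 with 3.78, Por with 3.65 and Hamp2 with 4.53. For Hamp2 the male over female log2 ratio was 1.51 in stomach and -3.01 in the others, so the contrast rests on both. The tags of Itgb5, Bud31, Serpina3n and Hint1 printed above have 3 or 4 G and C bases, and those of Rpl28, Por and Edf1 have 10 to 13.

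Data outside the gene counts also stood apart. A single tag without an assignment took 4.57% of the female stomach library. The same tag took 0.556% of the male one and 0.0942 to 0.675% of the other 12. Tags without an assignment made up 18.6% of the female stomach library, against 4.18% in the male one.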

How the results depend on the processing

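With library totals in place of TMM factors, genes called higher against the mean numbered 3976 and lower 204, and 0 were lower than each tissue. The share of higher calls was 82.0% in the main setting, 95.1% with library totals and 49.4% with limma voom, where 2156 genes were called lower, 27 lower than each tissue, 1069 higher in male stomach and 745 with a higher sex difference. The median of all genes was 0.17, 0.53 with library totals and -0.09 with voom. DESeq2 called 208 genes higher than each tissue, and the leading tag alone gave 4 lower than each. After tag composition centring these were 17, male stomach had 526 higher and 988 lower, and the sex difference 312 and 831. Leaving out a library, the ranges were 2422 to 3231 higher and 402 to 1739 lower against the mean, 813 to 1746 above all others, 189 to 611 higher and 2 to 347 lower than each tissue, 1508 to 1813 higher and 1942 to 2156 lower in male stomach, and 1087 to 1443 and 1654 to 1952 for the sex difference. The extremes came without the female stomach library (1746, 611, 1739 and 347) and without the male pancreas one (189 and 2). Of 295 named genes followed, 61 lost a call and 39 gained one in at least 1 alternative, and 6 changed direction: Nefl (-1.26 with voom), Alb (3.73 with the leading tag alone), and, without the female and the male stomach library in turn, mt-Nd6 (-2.09 and 2.34), Cdk1 (-0.15 and 2.54), Sstr2 (-0.17 and 3.01) and Myh4 (4.30 and -4.71). mt-Nd4 in male over female stomach was 0.63 after centring. The causes were not tested. No paired analysis was possible because the labels number no replicates, and sex was a term of the fit. Depth limits genes under the floor of 3 counts, and 1 library per sex limits every comparison of the sexes.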

Other observations

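Adipose genes were called higher in 7 of 10 cases, without a member above all other libraries. Cfd, adipsin, had 28.1 CPM in male and 120 CPM in female stomach, against up to 414 CPM in parotid, and Pparg 8.84 and 133 CPM, against up to 40.0 CPM in bone marrow. Of 34 secretory pathway genes of the endoplasmic reticulum 4 were called higher and 1 lower. Agr2, a disulfide isomerase of mucous cells, stood at 716 CPM in male and 222 CPM in female stomach, against up to 1.89 CPM, and Ero1a at 78.5 and 76.3 CPM, against up to 59.1 CPM. Of 6 mesothelial genes 4 were called higher, with Upk3b at 8.84 and 26.4 CPM, against up to 3.62 CPM. That list shares Dmkn with the squamous list. Dmkn (382 and 381 CPM) and Slpi (53.6 and 304 CPM) made up most of its summed 467 CPM in male and 732 CPM in female stomach. The count of 4 is therefore not a measure of mesothelium alone. Of 13 salivary genes 2 were called higher and 1 lower, and Bpifa2 had 4.68 and 6.93 CPM, against up to 310299 CPM in parotid, and Amy1 22.4 and 24.7 CPM, against up to 87616 CPM. Of 15 neutrophil genes 1 was called higher and 1 lower, and of 9 erythroid genes 0 and 2, with S100a9 at 14.6 and 8.67 CPM, against up to 10820 CPM in bone marrow, and Hba-a1 at 204 and 62.0 CPM, against up to 121363 CPM. Limma voom called 10 of the 15 neutrophil and 8 of the 9 erythroid genes lower, and DESeq2 1 and 5.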
